A study of Mus musculus with 2 samples.

Results

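The genes described here encode clathrin, its AP2 adaptor and the proteins that work with them in endocytosis, and several are known for exons that neurons include and other cells skip. The members are 10 genes (Clta, Cltb, Cltc, Ap2a1, Ap2m1, Picalm, Numb, Bin1, Dnm1 and Dnm2) of the 18580 annotated genes that had reads. They were taken by gene symbol, with every transcript model assigned to them. The data are long-read RNA sequencing of total RNA from the adrenal gland, taken at 10 days of age from males of the F1 hybrid B6CASTF1/J. There was 1 group, with replicate 1 and replicate 2, and no treatment or altered gene is labelled. Both labels carry the same donor, and those of replicate 2 number its animal in more than 1 way, so separate animals cannot be taken as given. The comparisons below are therefore between 2 libraries, and their p-values measure the spread between the reads of these libraries and not between mice. Each read stands for 1 cDNA followed from end to end, so that exons far apart can be read together where the cDNA spans them. Many reads matched only part of a transcript, and combinations of exons were counted only on reads that cover them all. Reads of both parental alleles were counted as 1.

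Clathrin-coated pits take membrane and receptors into the cell. Heavy chains (Cltc) and light chains (Clta and Cltb) form the lattice, the AP2 complex (with Ap2a1 and Ap2m1 among its subunits) ties it to the membrane and to cargo, and Picalm and Numb are further adaptors. Bin1 bends membrane at the neck of the pit, and the dynamins Dnm1 and Dnm2 cut the neck. Neurons are known to lengthen both light chains and Bin1 by extra exons, and Dnm1 is the dynamin of neurons, whereas Dnm2 is made in most tissues. The adrenal gland holds neuron-like chromaffin cells in its medulla and steroid-making cells in its cortex, and a whole-gland sample cannot tell fewer cells of a type from less RNA per cell.

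Replicate 1 had 971827 reads and replicate 2 had 1407511 reads, of which 927914 and 1303420 lay on annotated genes. The members held 842 and 890 of these in 171 and 180 models, or 0.0907% and 0.0683%. Levels are given as CPM, the reads of a gene per 1000000 reads on annotated genes, and the most that a count of 0 allows is 3.23 CPM in the library of replicate 1, against 2.30 CPM in that of replicate 2. The libraries differed in make-up. Reads without an intron made up 6.53% and 14.3% of gene reads, and the mean length of the model behind a read was 2335 and 1904 bases. Of the markers of other tissues, the summed level of 6 skeletal muscle genes reached 751 CPM in replicate 1, against 2071 CPM in replicate 2, and that of 4 liver genes was 8371 and 24027 CPM. The 11 chromaffin and neuronal markers summed to 11499 and 6168 CPM, most of it from the chromaffin genes Chgb, Chga and Th. Pnmt, also a chromaffin gene, was not higher in replicate 1 (639 and 707 CPM; Fisher's exact test, adjusted p = 0.123). The neuronal markers were mixed. Tubb3 (22.6 and 43.0 CPM; Fisher's exact test, adjusted p = 0.0334) and Stmn2 (19.4 and 41.4 CPM; Fisher's exact test, adjusted p = 0.0146) were lower in replicate 1. Snap25 (32.3 and 23.0 CPM) and Rbfox3 (9 and 4 reads) had the higher CPM in replicate 1 but did not pass the test. Syt1 (4 and 6 reads) did not pass either, and Elavl4 (7 and 1 reads) was not tested. The 5 cortical markers summed to 25399 and 16781 CPM, and no marker of the chromaffin and neuronal list or the cortical list was at 0 in either library.

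Clathrin light chain reads came almost entirely from the short forms without the neuronal exons. Clta, light chain a, has a 54-base exon of 18 codons and, downstream of it, a 36-base exon of 12 codons, and Cltb, light chain b, has a 54-base exon at the matching place. These exons are shown because they are the inserts known from neurons. Capitals mark the exon and lower case the 15 bases of the spliced transcript on each side.
Clta 54-base exon, chr4:44030215-44030268, plus strand: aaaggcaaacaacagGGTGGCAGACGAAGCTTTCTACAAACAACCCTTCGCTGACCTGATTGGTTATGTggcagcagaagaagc
Clta 36-base exon, chr4:44031400-44031435, plus strand: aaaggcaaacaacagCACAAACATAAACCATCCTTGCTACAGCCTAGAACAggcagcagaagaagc
Cltb 54-base exon, chr13:54597026-54597079, minus strand: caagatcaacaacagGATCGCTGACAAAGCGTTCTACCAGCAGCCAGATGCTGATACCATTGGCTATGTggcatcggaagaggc
The 54-base exons of Clta and Cltb were identical at 37 of 54 positions (68.5%) when set side by side without gaps. Sequences here and below are from the GENCODE M21 transcripts of mm10.

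The Clta 54-base exon was in 2 of 102 informative reads of replicate 1 (1.96%, 95% Clopper-Pearson interval 0.238 to 6.90) and 9 of 164 of replicate 2 (5.49%, 2.54 to 10.2). Informative reads either hold the exon between 2 introns or splice past it. The Clta 36-base exon was in 6 of 102 (5.88%) and 12 of 164 (7.32%) reads, a difference of -1.43 percentage points between replicate 1 and replicate 2 that was within counting error (Fisher's exact test, adjusted p = 1). The intervals of both exons overlapped between the libraries. Read along whole molecules, 95 of 102 reads of replicate 1 (93.1%) and 151 of 164 of replicate 2 (92.1%) had neither exon. The 36-base exon stood alone in 5 and 4 reads, the pair was joined in 1 and 8 reads, and the 54-base exon stood alone in 1 read of each library. The joined pair gives the longest insert, the form known from neurons, and its share was 0.980% in replicate 1 (0.0248 to 5.34) and 4.88% in replicate 2 (2.13 to 9.39). A donor site 6 bases upstream of the main donor, in an earlier exon, was used by 4 of 103 and 9 of 165 Clta reads (3.88% and 5.45%). In the annotation this is isoform Clta-201, also without either insert, with 3 of 100 and 9 of 163 reads of annotated transcripts. Clta-206, which has neither insert and uses the main donor, had 90 of 100 and 141 of 163.

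The Cltb 54-base exon was in 0 of 74 informative reads of replicate 1 and 4 of 98 of replicate 2 (4.08%, 1.12 to 10.1). The count of 0 allows a share of up to 4.05%, so a difference between the libraries was not detectable at this depth. Cltb-202, which lacks the exon, held 71 of 71 reads of annotated Cltb transcripts in replicate 1 and 90 of 94 in replicate 2. Cltc, the heavy chain, has an annotated 21-base exon (chr11:86701061-86701081) that no read included, with 56 and 24 informative reads, which allows up to 5.36% and 12.5%. A donor 16 bases from the main Cltc donor that is in no annotated transcript was used by 4 of 56 and 1 of 24 reads (7.14% and 4.17%).

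Between the libraries, Cltc was higher and Cltb lower in replicate 1. Cltc had 57 reads in replicate 1 (61.4 CPM, exact Poisson interval 46.5 to 79.6) and 31 reads in replicate 2 (23.8 CPM, 16.2 to 33.8), a log2 ratio of 1.36 (2.56-fold; Fisher's exact test, adjusted p = 1.26e-04). Cltc also has the longest main transcript of the members, 6519 bases, and 28 of 57 of its reads in replicate 1 were full-length matches to an annotated transcript, against 3 of 31 in replicate 2. Cltb had 78 reads (84.1 CPM) in replicate 1 and 161 reads (123.5 CPM) in replicate 2, with a log2 ratio of -0.55 (Fisher's exact test, adjusted p = 0.0170). Of the 161 reads of replicate 2, 63 came from 1 model with no intron, which lies within the annotated last exon (chr13:54592401-54593891). With spliced models alone Cltb had 79.7 CPM in replicate 1 and 75.2 CPM in replicate 2, still scaled to all gene reads. The test scaled them instead to the reads of spliced models in each library. On that scale the log2 ratio was -0.04 (Fisher's exact test, adjusted p = 0.946, against 1.72e-04 to 0.993 over the alternatives). The sign of this small ratio thus depended on the scale, and the Cltb call rests on these intronless reads. Clta had 104 reads (112.1 CPM) and 186 reads (142.7 CPM), and did not pass the test (log2 ratio -0.35; Fisher's exact test, adjusted p = 0.116). With TMM factors, which centre the bulk of the genes, the Clta ratio was -0.59 (Fisher's exact test, adjusted p = 0.00414, against 0.00233 to 0.178 over the alternatives). Clta made up 57.1% of light chain reads in replicate 1 (49.6 to 64.4) and 53.6% in replicate 2 (48.2 to 58.9), and 58.2% and 62.9% of those with an intron. The 2 light chains were thus read at levels of the same order in each library.

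The levels of all genes set the scale for these calls. Of the 11650 genes tested (10 or more reads over both libraries), 22.2% were called higher and 13% lower in replicate 1, so calls were common. Of the 9 members tested, 5 were higher in replicate 1 (Cltc, Ap2a1, Ap2m1, Bin1 and Dnm2), 1 was lower (Cltb) and 3 were not called (Clta, Picalm and Numb). Their median log2 ratio was 0.73, beside 0.25 over all genes tested. TMM factors moved the median of all genes to 0.01 and DESeq2 size factors to -0.02, and the split of calls over all genes moved with them: 2581 higher and 1510 lower became 1377 and 1948 with TMM and 1290 and 2022 with DESeq2. With either scaling 4 members were higher and 2 lower, Ap2m1 leaving and Clta joining the calls. In order of mean CPM over both libraries (mean ± SD, n = 2), the members were Clta (127 ± 21.7), Ap2a1 (119 ± 50.6), Bin1 (119 ± 43.0), Dnm2 (109 ± 61.3), Cltb (104 ± 27.9), Ap2m1 (91.6 ± 32.0), Picalm (52.3 ± 8.46), Cltc (42.6 ± 26.6), Numb (27.2 ± 2.67) and Dnm1 (2.77 ± 0.659). These are reads of cDNAs, whole or partial, and were not divided by length. From Clta down to Ap2m1, and from Picalm down to Numb, the ranges of neighbours in this order overlapped between the libraries, so the order within these runs is not resolved. Gaps without overlap lay between Ap2m1 and Picalm and between Numb and Dnm1.

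**Figure D1:**
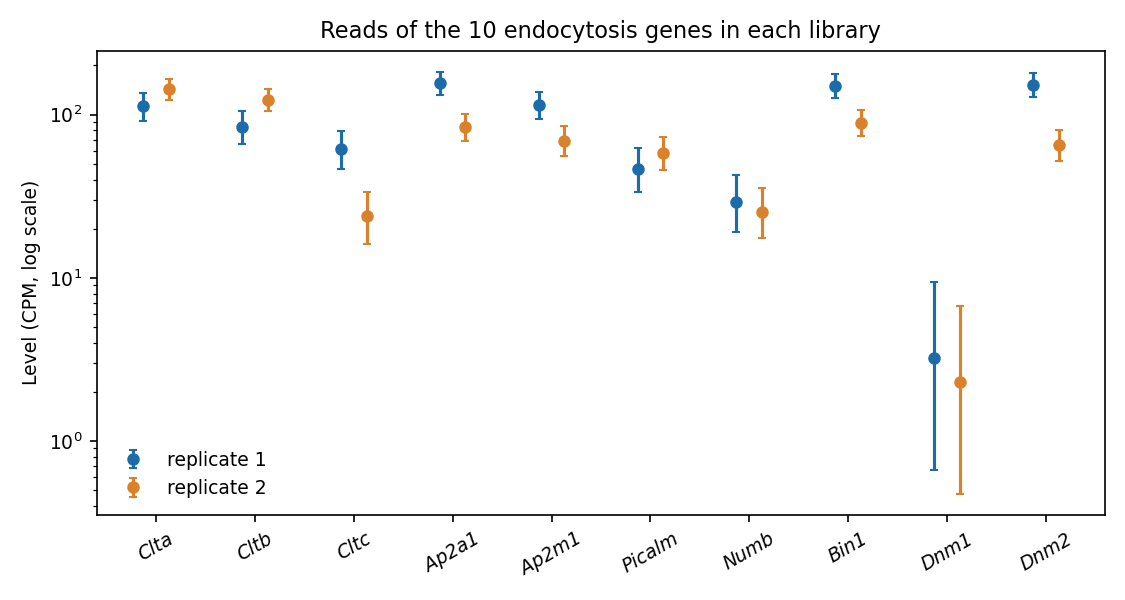
Level of each member in CPM (log scale) in replicate 1 (left point) and replicate 2 (right point), with exact Poisson 95% intervals. Cltc, Ap2a1, Ap2m1, Bin1 and Dnm2 lie higher in replicate 1, Cltb lies lower, and Dnm1 has 3 reads in each library.

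How much of each gene was read through also differed between the libraries. The share of a member's reads in annotated full-length transcripts was lower in replicate 2 for each of the 9 members with such reads. It was 96.2% in replicate 1 and 87.6% in replicate 2 for Clta, 69.4% and 33.0% for Ap2a1, 44.0% and 18.8% for Dnm2, and 49.1% and 9.68% for Cltc. The share of reads without an intron was 0.961% to 6.98% over these 9 members in replicate 1 and 5.17% to 44.7% in replicate 2, with Bin1 lowest and Picalm highest in replicate 2. Most of these reads lay within annotated last exons. Dnm2 was an exception. Its most-read intronless model in each library overlapped a last exon but did not lie within 1. This model held 7 of 7 such reads in replicate 1 and 15 of 20 in replicate 2. In replicate 1 the same held for the most-read intronless models of Clta (1 read) and Bin1 (2 reads). Since the members' levels and these shares moved between the same libraries, their part in the level differences was not tested beyond the counts with spliced models given here: these left Cltc, Ap2a1, Ap2m1, Bin1 and Dnm2 higher and no member lower.

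**Figure D2:**
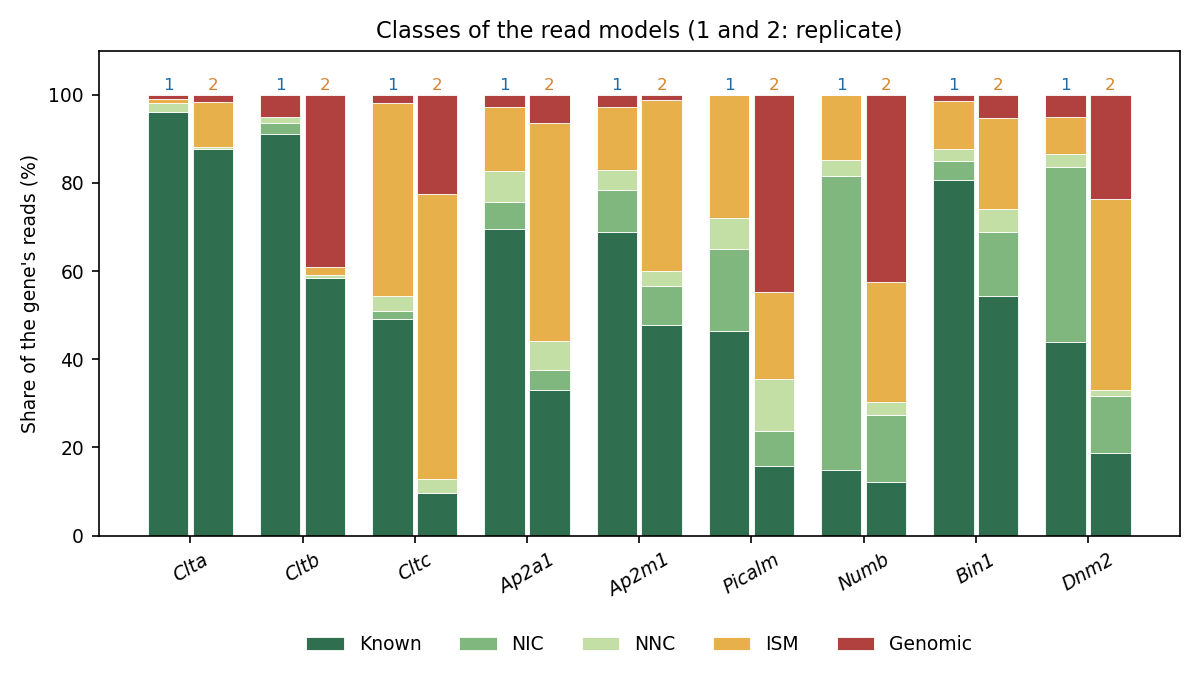
Share of each member's reads by class of transcript model, with replicate 1 left and replicate 2 right of each pair. Known models match an annotated transcript, ISM models match part of 1, and Genomic models are mostly intronless. NIC and NNC models combine annotated splice sites in an unannotated way or use an unannotated site. Known shares are lower in replicate 2 for all 9 genes shown. In replicate 2 the Genomic shares of Picalm (44.7%), Numb (42.4%) and Cltb (39.1%) are the largest.

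The AP2 subunits were read in their short forms. Ap2a1 encodes an alpha subunit, whose longer form is known from brain and carries a 66-base exon of 22 codons. Ap2m1 encodes the mu subunit, which binds cargo, and has a 6-base exon of 2 codons, shown because it is the smallest alternative exon of the members.
Ap2a1 66-base exon, chr7:44903462-44903527, minus strand: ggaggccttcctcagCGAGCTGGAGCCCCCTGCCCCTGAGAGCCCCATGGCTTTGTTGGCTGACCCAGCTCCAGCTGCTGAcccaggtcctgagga
Ap2m1 6-base exon, chr16:20540808-20540813, plus strand: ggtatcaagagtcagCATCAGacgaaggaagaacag
The Ap2a1 exon was in 3 of 133 informative reads of replicate 1 (2.26%, 0.468 to 6.45) and 4 of 97 of replicate 2 (4.12%, 1.13 to 10.2). Ap2a1-202, which skips it, held 97 of 100 and 34 of 36 reads of annotated transcripts. The Ap2m1 6-base exon was in 0 of 80 and 0 of 47 informative reads, which allows up to 3.75% and 6.38%. The level of this form, if present, lay below those limits, whereas Ap2m1-202, which skips the exon, held 72 of 73 and 40 of 43 reads of annotated transcripts.

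Both AP2 genes had higher CPM in replicate 1. Ap2a1 had 144 reads (155 CPM) in replicate 1 and 109 reads (83.6 CPM) in replicate 2, a log2 ratio of 0.89 (Fisher's exact test, adjusted p = 9.62e-06), and the ratio was 0.65 with TMM. Ap2m1 had 106 reads (114.2 CPM) and 90 reads (69.0 CPM), a log2 ratio of 0.73 (Fisher's exact test, adjusted p = 0.00236). That call was lost with TMM factors (0.48; Fisher's exact test, adjusted p = 0.0697) and DESeq2 size factors (0.45; Fisher's exact test, adjusted p = 0.0940), and over all alternatives the adjusted p of Ap2m1 ran between 1.33e-04 and 0.0940.

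Of the 4 alternative exons of Picalm, 2 were used at intermediate levels, 1 was rare and 1, of 103 bases, was in every informative read of both libraries. Picalm binds clathrin, AP2 and phosphoinositides and helps to set the size of coated vesicles. Its 150-base and 24-base exons are shown because their use set the Picalm isoforms of this tissue.
Picalm 150-base exon, chr7:90182219-90182368, plus strand: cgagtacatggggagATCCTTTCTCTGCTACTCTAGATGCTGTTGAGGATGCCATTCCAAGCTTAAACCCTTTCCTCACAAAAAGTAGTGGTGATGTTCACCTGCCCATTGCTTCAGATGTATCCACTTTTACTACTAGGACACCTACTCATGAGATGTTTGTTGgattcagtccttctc
Picalm 24-base exon, chr7:90194273-90194296, plus strand: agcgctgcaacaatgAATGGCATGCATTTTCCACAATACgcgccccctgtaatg
The 24-base exon of 8 codons was in 15 of 37 informative reads of replicate 1 (40.5%, 24.8 to 57.9) and 10 of 27 of replicate 2 (37.0%, 19.4 to 57.6), and the 150-base exon of 50 codons was in 5 of 33 (15.2%, 5.11 to 31.9) and 3 of 22 (13.6%, 2.91 to 34.9). Neither difference passed the test (Fisher's exact test, adjusted p = 1 for each). Reads with neither exon were 16 of 33 in replicate 1 and 11 of 22 in replicate 2, reads with the 24-base exon alone 12 and 7, and reads with the 150-base exon alone 5 and 2. The exons were joined in 0 reads of replicate 1 and 1 read of replicate 2. The rare exon, of 102 bases, was in 1 of 39 and 2 of 32 reads (2.56% and 6.25%). A further choice lay at an acceptor 15 bases upstream of the main acceptor, used by 11 of 36 reads (30.6%) and 9 of 26 reads (34.6%). The main annotated forms were Picalm-212, with 10 of 20 and 5 of 12 reads, and Picalm-205, with 7 of 20 and 5 of 12. An unannotated chain of annotated splice sites, with 19 exons, had 7 reads in replicate 1 and 4 in replicate 2.

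Picalm as a gene had 43 reads (46.3 CPM) in replicate 1 and 76 reads (58.3 CPM) in replicate 2, and its log2 ratio of -0.32 did not pass the test (Fisher's exact test, adjusted p = 0.419). Of the 76 reads of replicate 2, 33 came from 1 intronless model within the last exon. With spliced models alone Picalm had 43.1 CPM in replicate 1 and 32.2 CPM in replicate 2, still scaled to all gene reads. Scaled to the reads of spliced models in each library, the log2 ratio turned to 0.30 (Fisher's exact test, adjusted p = 0.534, against 0.0763 to 0.584 over the alternatives). The direction of Picalm between the libraries thus depended on whether intronless reads were counted, and it passed the test with neither count.

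Numb, an endocytic adaptor and an inhibitor of Notch signalling, is known for 2 coding inserts. A 33-base exon of 11 codons lengthens its phosphotyrosine-binding domain and a 147-base exon of 49 codons its proline-rich region, and both are shown for that reason.
Numb 33-base exon, chr12:83825259-83825291, minus strand: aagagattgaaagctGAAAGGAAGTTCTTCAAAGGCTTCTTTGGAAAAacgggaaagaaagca
Numb 147-base exon, chr12:83797197-83797343, minus strand: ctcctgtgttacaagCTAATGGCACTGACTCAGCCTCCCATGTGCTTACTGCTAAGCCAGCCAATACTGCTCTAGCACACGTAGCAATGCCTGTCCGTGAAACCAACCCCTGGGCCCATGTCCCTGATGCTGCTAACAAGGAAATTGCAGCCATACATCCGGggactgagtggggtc
The 33-base exon was in 12 of 24 informative reads of replicate 1 (50%, 29.1 to 70.9) and 0 of 11 of replicate 2, which allows up to 27.3%. Replicate 2 had too few reads for the exon test. With a minimum of 10 informative reads the unadjusted p of Fisher's exact test was 0.00548 and the adjusted p was 0.461, so the difference was not called. The 147-base exon, known from dividing progenitor cells, was in 2 of 26 reads of replicate 1 (7.69%, 0.946 to 25.1) and 0 of 16 of replicate 2, which allows up to 18.8%. Both reads with the 147-base exon among those that cover all alternative exons also held the 33-base exon. An 85-base exon without coding bases, near the start of the gene, was in 13 of 24 and 9 of 14 reads (54.2% and 64.3%). Numb-204, which lacks both coding inserts, was the only annotated form with reads, with 4 in each library, and an unannotated chain of annotated splice sites with 10 exons had 5 and 4 reads. Numb as a gene had 27 reads (29.1 CPM) in replicate 1 and 33 reads (25.3 CPM) in replicate 2, and did not pass the test (log2 ratio 0.21, and -0.04 with TMM; Fisher's exact test, adjusted p = 0.743 before that scaling).

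Dynamin reads were almost all Dnm2. Dnm1 had 3 reads in each library (3.23 CPM in replicate 1 and 2.30 CPM in replicate 2), none of them a full annotated transcript, and its 7 alternative exons had at most 2 informative reads in a library. Dnm2 has a pair of 139-base exons of which a transcript takes 1, in the middle of the protein, and a 12-base exon of 4 codons further on. These are shown because together they define the Dnm2 forms of this tissue.
Dnm2 139-base exon, upstream, chr9:21478899-21479037, plus strand: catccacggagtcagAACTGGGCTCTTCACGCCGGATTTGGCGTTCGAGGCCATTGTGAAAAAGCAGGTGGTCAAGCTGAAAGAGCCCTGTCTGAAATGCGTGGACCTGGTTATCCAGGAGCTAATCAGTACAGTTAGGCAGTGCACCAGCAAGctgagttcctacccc
Dnm2 139-base exon, downstream, chr9:21480407-21480545, plus strand: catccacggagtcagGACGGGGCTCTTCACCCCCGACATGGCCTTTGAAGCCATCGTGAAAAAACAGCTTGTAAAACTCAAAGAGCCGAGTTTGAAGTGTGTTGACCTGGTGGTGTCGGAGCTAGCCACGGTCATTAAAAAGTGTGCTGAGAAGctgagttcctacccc
Dnm2 12-base exon, chr9:21490658-21490669, plus strand: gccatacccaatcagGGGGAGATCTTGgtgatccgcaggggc
Dnm2 12-base exon, further upstream and without reads, chr9:21489910-21489921, plus strand: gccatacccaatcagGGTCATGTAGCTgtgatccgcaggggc
The 139-base exons were identical at 95 of 139 positions (68.3%), and the 12-base exons at 4 of 12. The lower-case bases on each side are the same within each pair, since the exons of a pair are spliced to the same neighbours.

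The upstream 139-base exon was in 86 of 127 informative reads of replicate 1 (67.7%, 58.8 to 75.7) and 28 of 35 of replicate 2 (80.0%, 63.1 to 91.6), and the downstream exon in 41 of 127 (32.3%, 24.3 to 41.2) and 7 of 35 (20.0%, 8.44 to 36.9). Each of the 127 and 34 reads that cover all alternative exons held exactly 1 exon of the pair. The upstream exon was thus the major form in both libraries, and the difference of -12.3 points between replicate 1 and replicate 2 did not pass the test (Fisher's exact test, adjusted p = 0.893). The 12-base exon was in 56 of 128 reads (43.8%, 35.0 to 52.8) and 15 of 34 reads (44.1%, 27.2 to 62.1). The other annotated 12-base exon was in 0 of 128 and 0 of 34 reads, which allows up to 2.34% and 8.82%. Of reads with the upstream 139-base exon, 40 of 86 (46.5%) in replicate 1 and 11 of 27 (40.7%) in replicate 2 also held the 12-base exon. Of reads with the downstream 139-base exon, 16 of 41 (39.0%) and 4 of 7 (57.1%) did. The order turned round between the libraries and the intervals overlapped, so no preferred pairing was seen at this depth.

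The 4 combinations of Dnm2 were all present in both libraries. The upstream 139-base exon without the 12-base exon had 46 of 127 reads in replicate 1 and 15 of 34 in replicate 2 (36.2% and 44.1%), and with it 40 and 11 (31.5% and 32.4%). The downstream exon without the 12-base exon had 25 and 3 reads (19.7% and 8.82%), and with it 16 and 4 (12.6% and 11.8%). At its end Dnm2 chose among 3 acceptors after a shared donor. The first was used by 78 of 134 reads in replicate 1 and 35 of 60 in replicate 2 (58.2% and 58.3%), a second lying 3 bases further on by 43 and 18 (32.1% and 30%), and a distal last exon by 13 and 7 (9.70% and 11.7%). The shares of the 3 ends differed between the libraries by less than the width of their intervals. The most-read annotated forms, Dnm2-206 and Dnm2-202, had 22 and 20 of 62 reads in replicate 1 and 5 and 6 of 16 in replicate 2. Unannotated chains of annotated splice sites held 60 and 12 Dnm2 reads with those of unannotated sites, and 2 chains had 3 or more reads in each library (14 and 4 reads, and 13 and 3 reads).

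Dnm2 had the smallest adjusted p of the members. It had 141 reads (152 CPM, 128 to 179) in replicate 1 and 85 reads (65.2 CPM, 52.1 to 80.6) in replicate 2, a log2 ratio of 1.22 (2.32-fold; Fisher's exact test, adjusted p = 6.62e-09), and the ratio was 0.97 with TMM. Reads without an intron were 4.96% of Dnm2 reads in replicate 1 and 23.5% in replicate 2, and with spliced models alone the ratio was 1.40.

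Across the members, the exon test covered 9 alternative exons. Of all 1738 exons tested in 1131 genes (20 or more informative reads in each library, the rarer form 5% or more), 1.09% were called, and 1 of the 9 member exons was. The median size of the difference between the libraries was 6.71 points over these 9 exons and 4.82 points over all tested exons. Of the 30 alternative exons with 10 or more informative reads in each library, 15 were below 10% in both libraries, 5 above 90% in both, and 10 in between. Of the 15 exons below 10%, 13 are coding throughout and 14 have a length that is a multiple of 3, so that a coding exon of this kind keeps the reading frame. The exons of Clta, Cltb and Ap2a1 known from neurons or brain and the 93-base exon of Bin1 were all among these 15. The 129-base exon, at the head of the run that Bin1 is known to carry in neurons, was not: it was in 15.5% of informative reads of replicate 1 and 5.05% of replicate 2. Of the 9 tested exons 7 have such a length, beside 46.9% of all tested exons. The others are the 139-base pair of Dnm2, of which a transcript takes 1. Several members were known beforehand for alternative exons, so these shares are a description and their difference was not tested.

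**Figure D3:**
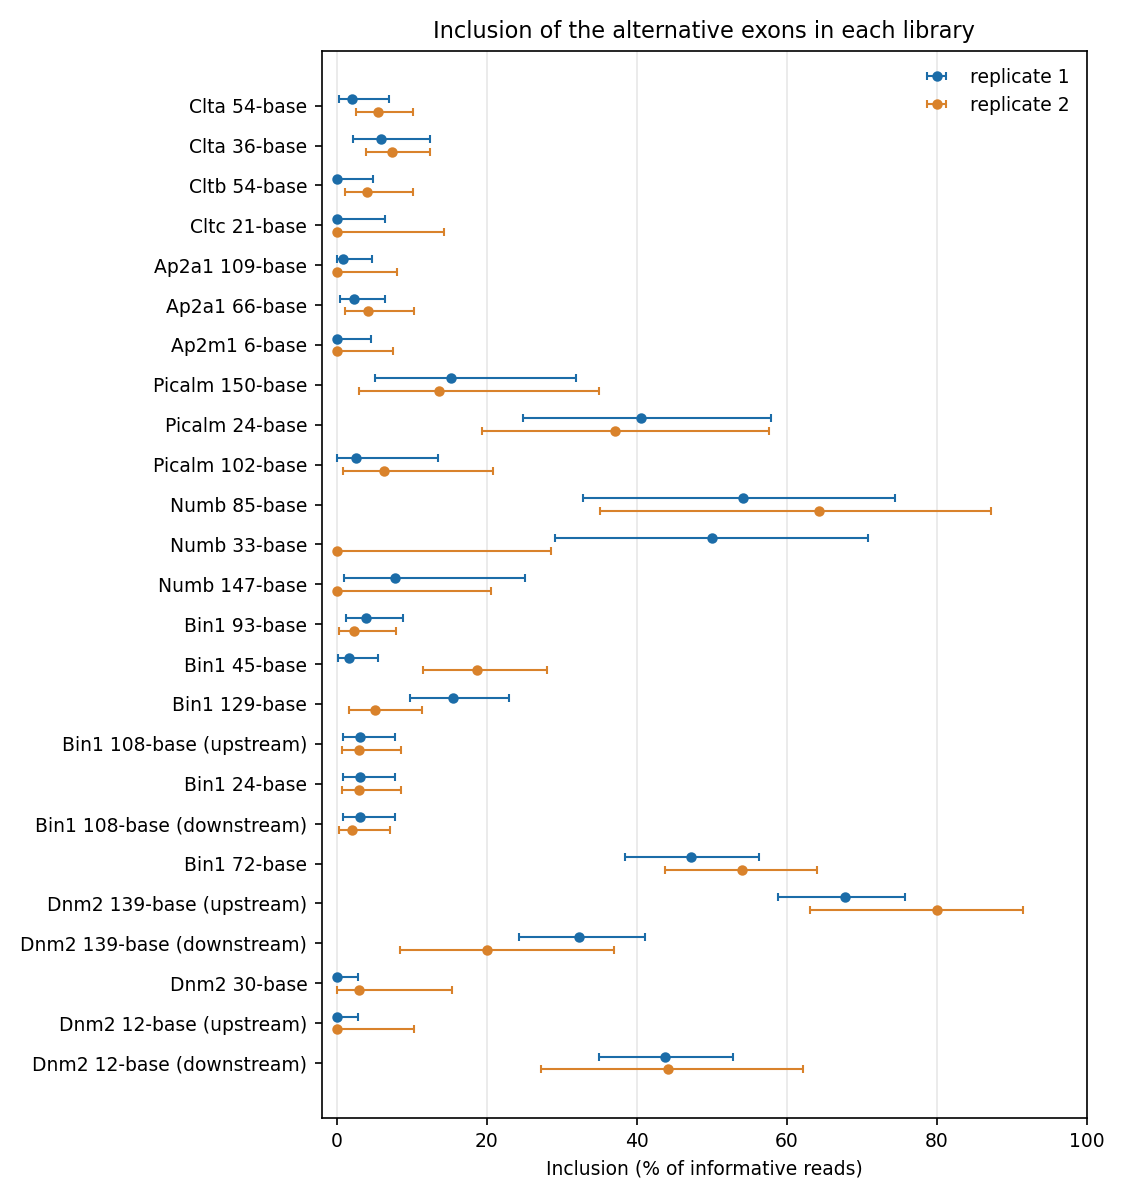
Inclusion of the members' alternative exons in percent of informative reads, with 95% Clopper-Pearson intervals, replicate 1 above replicate 2 in each pair; exons above 95% are not drawn. Exons of the clathrin chains and AP2 subunits lie near 0. The 24-base and 150-base exons of Picalm, the 139-base exons of Dnm2 and its downstream 12-base exon lie between. The intervals of the Bin1 45-base exon (1.56% in replicate 1 and 18.8% in replicate 2) do not overlap. Nor do those of the Numb 33-base exon (29.1 to 70.9 and 0 to 28.5), which had too few reads for the exon test.

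Bin1, also called amphiphysin 2, held the exon that differed between the libraries. In Bin1 the neuronal forms carry a 93-base exon and a run of exons that encode a clathrin- and AP2-binding stretch, and in human muscle a further exon encodes a stretch that binds phosphoinositides. A 45-base exon lay between annotated exons at chr18:32423242-32423286. It was in 2 of 128 informative reads of replicate 1 (1.56%, 0.19 to 5.53). In replicate 2 it was in 18 of 96 (18.8%, 11.5 to 28.0). The difference of -17.2 points was called (Fisher's exact test, adjusted p = 0.00108, against 0.00114 to 0.00472 over the alternatives that test it). The exon is in no transcript of GENCODE M21 and its sequence was not read, so whether it is coding is not known. Whether it corresponds to the human muscle exon was not tested. With the 72-base exon it formed an unannotated chain of 15 exons with 2 reads in replicate 1 and 11 in replicate 2. Markers of several tissues were lower in replicate 1, as this exon was. Of the liver genes 4 of 4 tested were lower (median log2 ratio -2.05), and of the muscle genes 3 of 4 (median -1.46). Of the Schwann and glia genes 2 of 3 were lower (median -0.71). Over all genes tested 13% were called lower, with a median of 0.25. Tubb3 and Stmn2 were lower too, whereas the neuronal markers Snap25 and Rbfox3 had the higher CPM in replicate 1 and were not called. Among the muscle genes, Acta1, skeletal muscle actin, had 466 CPM in replicate 1 and 1251 CPM in replicate 2, and Ckm, muscle creatine kinase, had 279 and 785 CPM. The muscle genes called were Acta1, Ckm and Tnnt3, and the embryonic myosin Myh3 and titin (Ttn) had 0 reads in replicate 1 and 5 and 3 reads in replicate 2. The part of RNA from any of these tissues in the Bin1 difference was not tested.

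Of the neuronal exons of Bin1, those of 93, 108, 24 and 108 bases were rare. The 93-base exon was in 5 of 128 reads of replicate 1 (3.91%) and 2 of 89 of replicate 2 (2.25%). The exons of 108, 24 and 108 bases that follow the 129-base exon were in 4 of 129 reads each of replicate 1 (3.10%) and in 3, 3 and 2 of 100 reads of replicate 2. In 4 of 128 covering reads of replicate 1, and 0 of 88 of replicate 2, they were joined on 1 molecule with the 93-base, 129-base and 72-base exons, which is isoform Bin1-201 with all 6 annotated alternative exons. The replicate 2 reads with the exons of 108, 24 and 108 bases did not cover all the alternative exons. Whether they came from the full joined form could therefore not be read. The 129-base exon was in 20 of 129 reads (15.5%, 9.73 to 22.9) and 5 of 99 reads (5.05%, 1.66 to 11.4), with an unadjusted p of 0.0173 that did not pass adjustment (Fisher's exact test, adjusted p = 0.387). The 72-base exon was close to even use, in 61 of 129 reads (47.3%) and 54 of 100 reads (54%; Fisher's exact test, adjusted p = 1). Most Bin1 molecules thus had none of these exons (63 of 128 and 38 of 88 reads) or the 72-base exon alone (43 and 31 reads), the forms Bin1-205 and Bin1-206.

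Bin1 as a gene had 139 reads (149.8 CPM) in replicate 1 and 116 reads (89.0 CPM) in replicate 2, a log2 ratio of 0.75 (Fisher's exact test, adjusted p = 2.28e-04), and the ratio was 0.51 with TMM.

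**Figure D4:**
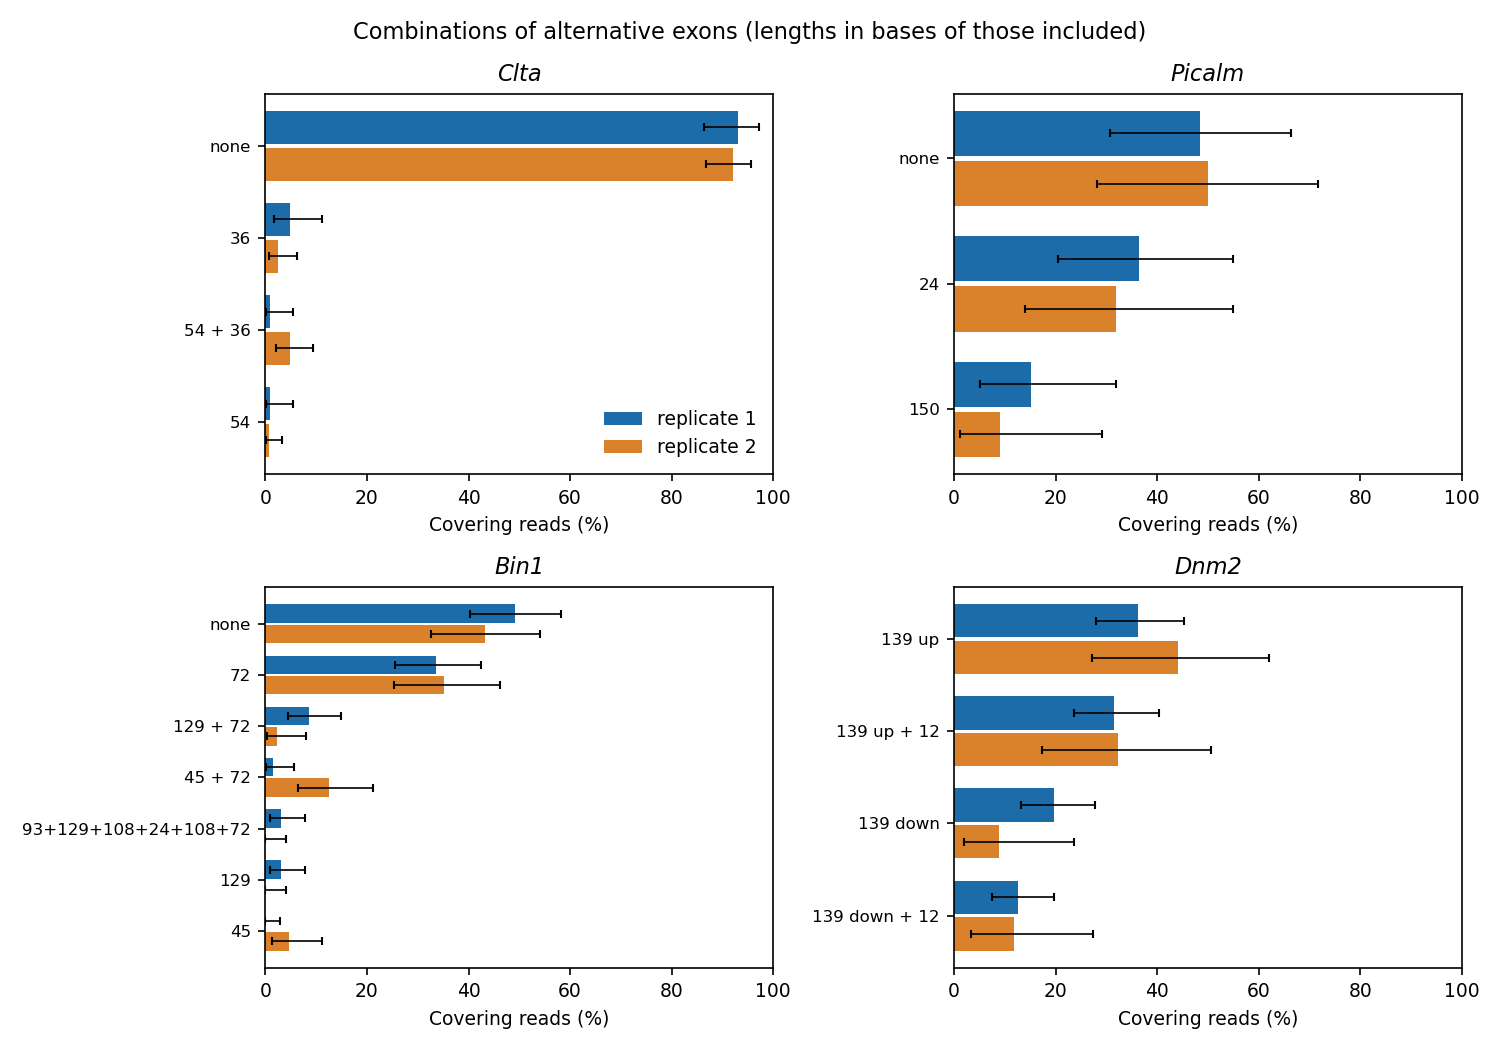
Share of the reads covering all alternative exons of a gene that hold each combination (labels give the lengths in bases of the exons included; up and down are the upstream and downstream 139-base exons of Dnm2), replicate 1 above replicate 2, with 95% Clopper-Pearson intervals. Combinations with 1 read in all are not drawn. Clta reads without either exon are 93.1% and 92.1%, and Dnm2 splits into 4 combinations in both libraries.

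Other genes of clathrin-mediated endocytosis were read beside the members, with a list of 52 genes, of which 51 had reads in both libraries. Of the 41 tested, 13 were higher in replicate 1, 1 was lower and 27 were not called, with a median log2 ratio of 0.67 beside 0.25 over all genes. These calls are 31.7% higher and 2.44% lower, beside 22.2% and 13% of all genes tested. With TMM factors 11 were higher and 1 lower (26.8% and 2.44%, beside 11.8% and 16.7% of all genes), and with DESeq2 size factors 10 and 2. Among adaptors, Dab2, which brings cargo receptors into pits, had 332 CPM in replicate 1 and 43.7 CPM in replicate 2, and the small AP2 subunit Ap2s1 was the gene that was lower, with 48.5 and 99.7 CPM. Ap2a2, the other alpha subunit, had 112 and 87.5 CPM, and Ap2b1, the beta subunit, had 9 and 6 reads. Hspa8, the chaperone that strips the clathrin coat, was the most abundant of the list at 2090 and 1333 CPM. Relatives of members that are known from neurons were also read: Snap91, the neuronal relative of Picalm, had 26.9 and 13.8 CPM (25 and 18 reads), Dnm3 had 4 and 5 reads, and Amph, the relative of Bin1, had 7 and 11 reads.

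Of the 21 regulators of neuronal and muscle exons, 13 were tested, 4 were higher in replicate 1 (Khdrbs3, Ptbp1, Qk and Mbnl2) and 0 were lower, while 9 were not called (Fisher's exact test). The 4 are 30.8% of those tested, beside 22.2% of all genes, and the median log2 ratio was 0.42 beside 0.25 over all genes. With TMM factors and with DESeq2 size factors 0 regulators were called in either direction by the same test, and 4 had an unadjusted p under 0.05 with each scaling. Ptbp1, which represses many neuronal exons, had 123 CPM in replicate 1 and 75.2 CPM in replicate 2, and Ptbp2, its neuronal relative, had 20 and 16 reads. Srrm4, an activator of neuronal microexons, had 0 reads in both libraries, which allows up to 3.23 and 2.30 CPM. Rbfox2 had 15 and 31 reads, and Mbnl1, a regulator of muscle splicing, had 61.4 and 55.2 CPM.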

How the data were processed

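Long-read RNA sequencing of 2 adrenal gland libraries was analysed. The deposited tables give counts, the raw reads per transcript model, with no normalization by the authors. The deposited annotations give exons of each model as positions on mm10 (an other unit, in bases), with classes credited to TALON in the file attributes; the aligner is not given in the sources used here. A gene's reads were summed over its models, and ratios used 0.5 added reads. Genes with 10 or more reads, and exons with 20 or more informative reads in each library and a rarer form of 5% or more, went into two-sided Fisher's exact tests, adjusted by Benjamini-Hochberg over all genes or exons (threshold 0.05). An exon is an exact pair of splice sites; reads with another version of it were left out. Intervals are exact Poisson or Clopper-Pearson at 95%, and they and the limit for a count of 0 (3 counts) cover counting error only. Named were all members, their annotated isoforms with 5% or more of annotated reads and their alternative exons, and list genes by role. The members and lists were chosen with earlier results of these data known. Scripts were tested on simulated data. No column of another series was present. Software was Python 3.11.15, numpy 2.4.6, pandas 2.3.3, scipy 1.17.1, matplotlib 3.10.9, R 4.3.3, edgeR 4.0.16 (TMM factors) and DESeq2 1.42.0 (size factors). Alternatives were these scalings, subsets of models, and other read minimums.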

Additional observations from a re-analysis of the deposited data

How the results depend on the processing

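No paired analysis was possible because the 2 libraries belong to 1 group. The single call among member exons, that of the Bin1 45-base exon, became 0 calls with annotated models alone, which do not hold the exon, and 0 calls with a rarer form of 10% or more, under which it was not tested. Numb reversed to -0.0381 with TMM factors and -0.0695 with DESeq2 size factors, Picalm to 1.09 with annotated models, 0.46 without Genomic models and 0.30 with spliced models, and Cltb to 0.0199 without Genomic models (log2 ratios). The 4 calls among splicing regulators became 0 with TMM and 0 with DESeq2 factors. These list scalings and the spliced-model count were chosen after seeing the data. Over the 9 tested exons, the median of mean inclusion was 26.1%, and 20.0% to 32.3% with 1 library at a time. These values are those of the downstream 139-base exon of Dnm2. The upstream exon of that pair, whose inclusion mirrors it, is also among the 9. With annotated models alone the mean inclusion of the Dnm2 12-base exon was 61.9%, against 43.9%, and that of the Picalm 24-base exon 52.5%, against 38.8%. Annotated models held fewer reads and left out the unannotated chains. Such chains without the Dnm2 12-base exon had up to 17 reads in replicate 1 and 4 in replicate 2. Chains with it had up to 13 and 3. Their part in the shift was not tested. Calls over all exons numbered 19 of 1738, and 4 of 531 with annotated models, 16 of 665 with 50 or more informative reads, and 6 of 1389 where skipping had to join the neighbouring exons. Depth limits the members to the shares above: exons of Numb and Picalm rest on 11 to 39 informative reads in a library.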
